A study of Mus musculus with 4 samples.

Results

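Pre-osteoblasts of the MC3T3-E1 line, from mouse calvaria with a C57BL/6 background, were compared after 3 days with and without citalopram. The comparison holds 2 of the 4 arrays of the series, 1 untreated and 1 given citalopram at 100 µM (0.0001 mol per litre), and every difference is the citalopram array minus the untreated array on the log2 scale. It was described over all 19938 genes that the array's annotation names with a single symbol. The other 2 arrays hold the same 2 conditions after 7 days and are set beside the day 3 values. All 4 groups were grown in medium with 1% serum, with 3 wells per condition seeded at 50000 cells per well, and no source used here says whether the wells were pooled. Each group is 1 array, so a difference has no replicate error, no test was possible, and an effect of citalopram cannot be told apart from a difference between any 2 cultures.

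Citalopram is a selective serotonin reuptake inhibitor, an antidepressant that blocks the serotonin transporter, and it is also a cationic amphiphilic compound, a kind of molecule known to collect in lysosomes. Pre-osteoblasts divide, leave the cell cycle and then lay down a collagen matrix that mineralises. Dividing cells switch on replication and histone genes in S phase and a later set for mitosis. NRF2 is a transcription factor that turns on antioxidant and detoxifying genes when its inhibitor KEAP1 is modified, and SREBP2 turns on cholesterol synthesis when sterol in the endoplasmic reticulum is low.

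Most of the osteoblast lineage markers measured were above the floor used here at day 3. Of 8 measured osteoblast lineage markers, 7 reached the floor, as did 12196 of all 19938 named genes. A gene reaches the floor when its level on the brighter day 3 array is at or above that array's 40th percentile. That percentile was 5.99 untreated and 6.01 with citalopram. Sparc, a matrix glycoprotein, was at 13.84 on the untreated array, Postn (periostin) at 13.31 and Col1a1, the main collagen chain of bone, at 11.92. Sp7 (osterix), a transcription factor of committed osteoblasts, was at 7.79, Alpl, alkaline phosphatase, was near the floor at 6.07, and Ibsp, bone sialoprotein, was below it. Runx2 and Bglap were not analysed here. None of 7 adipocyte markers reached the floor, with 4 of 10 chondrocyte markers, 4 of 9 myogenic, 3 of 11 macrophage and osteoclast, 1 of 7 endothelial, 3 of 8 epithelial, 3 of 7 neural and 1 of 7 lymphoid markers doing so.

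Differences at day 3 were small for nearly all genes. The floor left 12196 genes. With citalopram 5 of them reached 2-fold in the higher direction (0.0410%) and 2 in the lower (0.0164%). At 1.5-fold, 61 were higher (0.500%) and 37 lower (0.303%). The floor asks only that the brighter array reach it, and the other array was below its own floor for 14 of the 61, for 4 of the 37 and for 2 of the 5 genes at least 2-fold higher. With each array centred on the median of its genes above the floor, the split at 1.5-fold was 48 higher and 46 lower. Differences of any size leaned upward, with 57.7% of genes higher and 42.3% lower, a median of 0.03 and an SD over genes of 0.18. The lean grew with level, from a median of -0.01 at levels of 7 to 8 to 0.07 at levels of 12 and above, where 72.7% of genes were higher. Without the floor 59.4% of the 19938 genes were higher. Member counts below cover all measured members of a list, whether or not they reached the floor. The shares higher given here, which rise with level, are the background for the list and family counts below. Rescaling the arrays moved list medians by -0.05 to 0.01, and 21 of the 32 lists, all with a median of 0.11 or less in size, thereby changed by over 1.5 times or in sign.

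**Figure D1:**
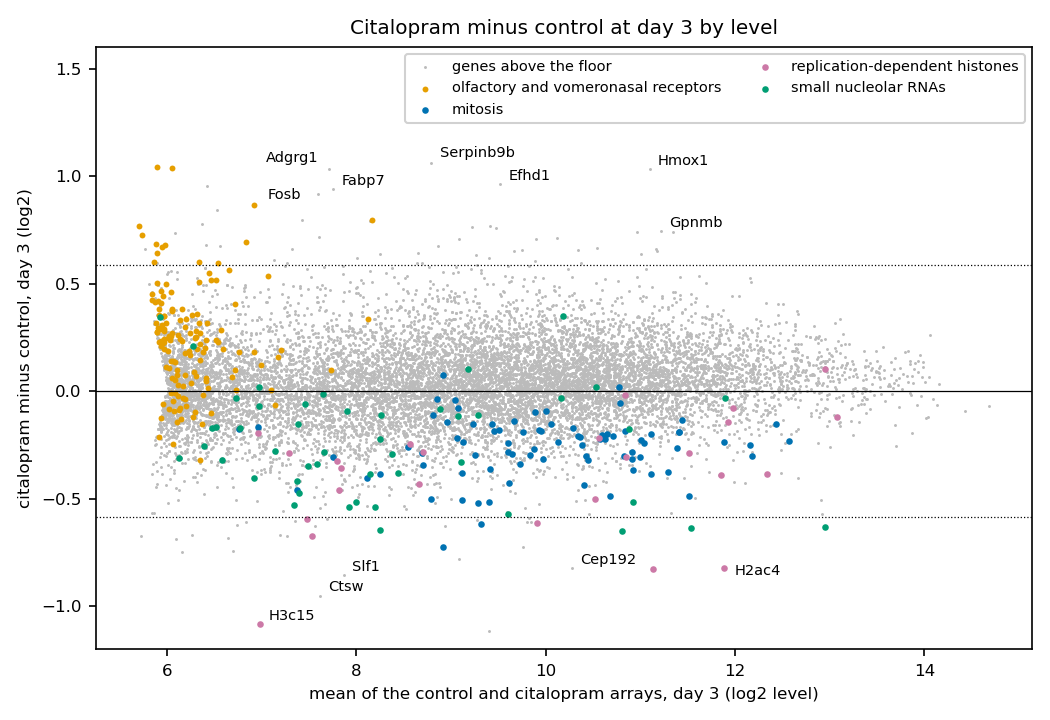
Each point is a gene above the floor, with its mean log2 level on the untreated and citalopram arrays at day 3 across and the citalopram minus control difference (log2) up. Dotted lines mark 1.5-fold, which 61 genes pass upward and 37 downward; mitosis genes, histones and small nucleolar RNAs lie mostly under 0, and the receptors of smell gather at the dim end above it.

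Receptors of smell and small nucleolar RNAs took up part of the genes past 1.5-fold. Of the 61 higher genes, 13 encode olfactory receptors and 1 a vomeronasal receptor (Vmn1r36), which are receptors of sensory neurons of the nose, and 47 belong to neither. Over all 1027 olfactory receptor genes measured, of which 114 reached the floor, the median level was 5.27 on the untreated array and 5.40 with citalopram, 78.0% were higher and the median difference was 0.11. At day 7 that median difference was -0.04. The receptors at least 2-fold higher, named after their values were seen, were Olfr936, at 5.37 untreated and 6.41 with citalopram, and Olfr1082, at 5.54 and 6.57. Both were below the floor on the untreated array. What part of these dim differences is expression was not tested. In the other direction, 46 of 53 small nucleolar RNA genes were lower with citalopram (median -0.22), among them Snord47 (11.13 untreated, 10.48 with citalopram) and Snord57 (11.85 and 11.21). These short RNAs guide chemical marks on ribosomal RNA and are mostly spliced out of the introns of host genes. Their median difference was 0.07 at day 7, and they were higher by a median of 0.69 on the untreated array of day 7 than on that of day 3, a difference that shares the day 3 untreated array. Gm24463, a long non-coding RNA read by 5 features, was the furthest lower gene of all, at 9.95 untreated and 8.84 with citalopram, and was also named after its value was seen.

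The named genes furthest higher with citalopram at day 3 were a protease inhibitor, a receptor and a haem-degrading enzyme, each about 2-fold higher. Serpinb9b, of the serpin family that blocks serine proteases, was at 8.26 on the untreated array and 9.32 with citalopram, a difference of 1.06. At day 7 it was 9.31 untreated and 9.32 with citalopram, so the untreated day 3 array is the 1 low value of the 4. Adgrg1, an adhesion G protein-coupled receptor, was at 7.19 and 8.22 at day 3 and at 7.75 and 7.57 at day 7, where the citalopram array was the lower of the pair. Hmox1, haem oxygenase 1, went from 10.58 untreated to 11.61 with citalopram, a difference of 1.03 (2.04-fold), and was higher with citalopram at day 7 as well (11.01 and 11.64). Both citalopram arrays are thus the high ones for Hmox1.

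Further genes of this end differ in how the day 7 pair reads. Fosb, a member of the AP-1 transcription factor family, was higher with citalopram in both pairs, at 7.13 and 8.05 at day 3 and 6.88 and 8.25 at day 7. Cacna1g, a T-type calcium channel gene, was higher in both pairs too (9.03 and 9.79, then 9.72 and 10.47). Pappa, a protease that cuts insulin-like growth factor binding proteins, differed by 0.76 at day 3 and 0.55 at day 7, and Gpnmb, a transmembrane glycoprotein made by osteoblasts and macrophages, by 0.74 and 0.54. Efhd1, a mitochondrial calcium-binding protein, was at 9.04 and 10.00 at day 3 and at 9.90 and 10.13 at day 7, and as with Serpinb9b the untreated day 3 array is the low one. Fabp7, a fatty acid-binding protein, was high on the citalopram array of day 3 alone (7.28 and 8.22, then 7.14 and 6.90). So were Rgs4, which shortens G protein signals (7.75 and 8.54, then 7.66 and 7.66), and Tmeff2, a transmembrane protein with follistatin-like regions (8.84 and 9.60, then a difference of -0.04 at day 7). Usp18, an interferon-induced enzyme that removes the ubiquitin-like ISG15, was highest on that array too (7.03 and 7.83, then 7.53 and 7.29). Atp6v0d2, which encodes part of the proton pump of lysosomes, went from 5.95, under the floor, to 6.90. The remaining named genes, Try10 and the skin envelope gene Lce1i, were dim, at 6.11 and 5.98 untreated, with differences of 0.84 and 0.77.

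**Figure D2:**
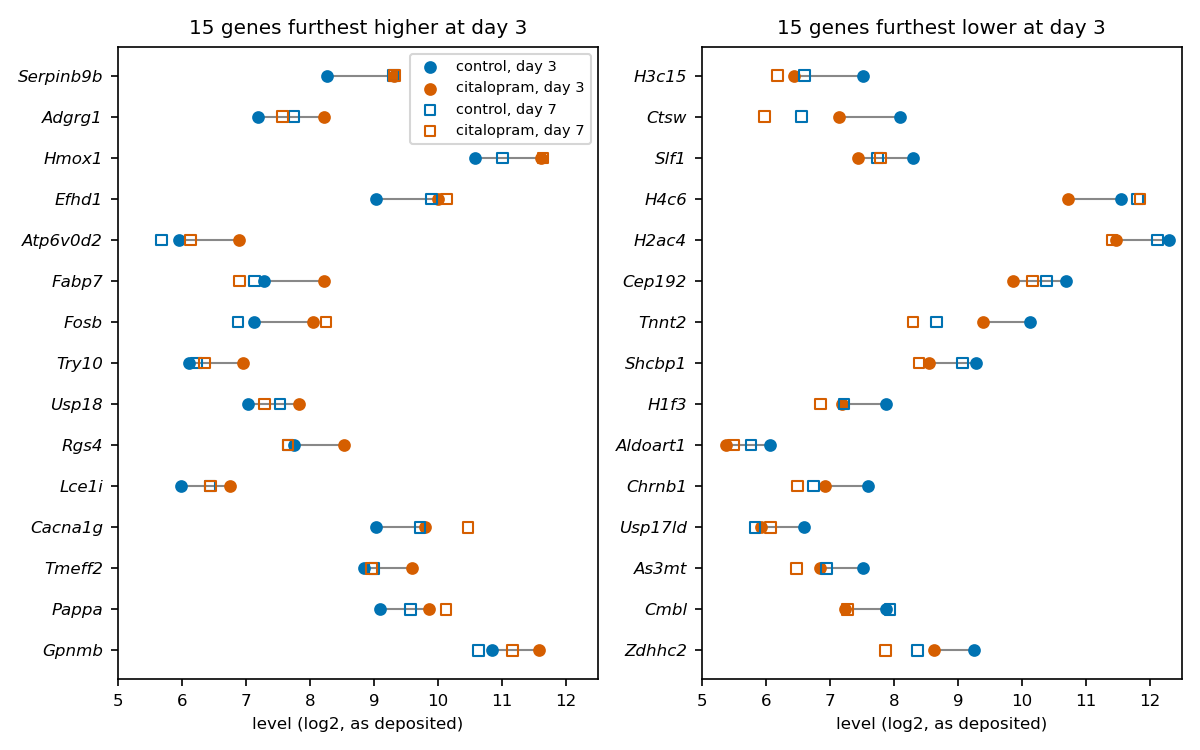
Log2 levels of the 15 named genes furthest higher (left) and the 15 furthest lower (right) on all 4 arrays. Filled circles joined by a line are day 3 and open squares day 7, in blue untreated and in orange with citalopram; for Serpinb9b, Efhd1 and H3c15 the untreated day 3 array stands apart from the other 3, while Hmox1 and Fosb are high on both citalopram arrays.

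At the lower end 4 of the 15 named genes were core or linker histones. H3c15 was at 7.53 untreated and 6.44 with citalopram (difference -1.08), then at 6.61 and 6.18 at day 7. H4c6 went from 11.54 to 10.72 at day 3 and was about level at day 7 (11.80 and 11.85). H2ac4 was lower with citalopram in both pairs, at 12.29 and 11.47, then 12.11 and 11.41, and the linker histone gene H1f3 likewise (-0.67 and -0.37). Histone genes of a class are near-identical copies, so the values of single ones are uncertain. Ctsw, the protease cathepsin W, was at 8.09 untreated and 7.14 with citalopram, and lower again in both arrays of day 7 (6.56 and 5.98). Shcbp1, a protein of the dividing cell's midbody, was at 9.28 and 8.55, then 9.07 and 8.40. Tnnt2, the cardiac form of troponin T, differed by -0.73 at day 3 and -0.36 at day 7, and its level on the untreated array was 10.12 at day 3 and 8.66 at day 7. Cmbl, a hydrolase, differed by -0.63 and -0.67, and Zdhhc2, which attaches palmitate to proteins, by -0.63 and -0.50. Chrnb1, a subunit of the muscle acetylcholine receptor, and As3mt, an arsenic methyltransferase, both differed by -0.67 at day 3.

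The values for Slf1 and Cep192 depend on the feature read. Slf1, which brings a cohesin-like complex to DNA damage, differed by -0.86 on its brighter feature and -0.36 on the other, and Cep192, a scaffold of the centrosome, by -0.82 to -0.13 over 3 features. Averaging the features gives -0.61 for Slf1 and -0.47 for Cep192. Aldoart1 and Usp17ld, both at -0.67, have near copies elsewhere in the genome and were dim (6.06 and 6.60 untreated).

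Genes of mitosis were lower with citalopram at day 3 almost without exception, by small amounts. Of 82 members measured, all above the floor, 80 were lower and 2 higher, with a median of -0.24 and 2 past 1.5-fold, where 42.3% of genes above the floor were lower. The 2 higher ones were Pttg1, securin, at 0.07, and Bub3, a checkpoint protein, at 0.02. The level of mitotic transcripts in a bulk RNA sample follows both the share of cells in mitosis and the RNA per cell, which cannot be told apart here. In the day 7 pair, which shares no array with day 3, 82 of 82 were lower, where 48.7% of genes above the day 7 floor and 10957 of all 19938 genes were, with a median of -0.58.

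Each role within mitosis showed a like median. Among kinases and checkpoint proteins the median was -0.23 over 21 genes. Cdc25c, the phosphatase that switches on CDK1, was at 8.31 untreated and 7.90 with citalopram, Bub1, a checkpoint kinase, at 11.48 and 11.10, and Cdk1 itself at 12.28 and 12.03. Centromere and kinetochore genes were lower in 21 of 21 (median -0.24). Spc25, of the complex that grips microtubules, went from 9.37 to 8.86, and Oip5, which helps to load the centromeric histone, from 9.04 to 8.54. All 27 kinesin and spindle genes were lower (median -0.24). Birc5, survivin, of the chromosomal passenger complex, had a difference of -0.62. The motor gene Kif4 went from 9.65 to 9.14, and Hmmr, a spindle-associated protein, from 10.92 to 10.43. All 13 genes of chromosome condensation and control were lower as well (median -0.30). There the condensin subunit gene Ncapg2 was at 9.54 and 9.02, Top2a, which untangles sister DNA, at 11.76 and 11.27, and the proliferation marker Mki67 at 11.50 and 11.37.

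Promoters of mitosis genes are known to share a pair of short elements, the cell cycle homology region (CHR) bound by the MuvB complex and the CCAAT box bound by NF-Y. The promoter windows below, 250 bases before to 50 after the start of transcription, belong to the mitosis members with the largest difference that have a window in the table, and show where those letters lie. They are RefSeq sequences of build GRCm38.p6, 5′ to 3′ on the gene's strand, at chr11:117848987-117849286 (plus strand), chr12:116405186-116405485 (plus strand) and chrX:100625815-100626114 (plus strand). Capitals mark TTTGAA or TTTAAA (CHR) and CCAAT, each on either strand, so that CCAAT on the other strand reads ATTGG.
Birc5: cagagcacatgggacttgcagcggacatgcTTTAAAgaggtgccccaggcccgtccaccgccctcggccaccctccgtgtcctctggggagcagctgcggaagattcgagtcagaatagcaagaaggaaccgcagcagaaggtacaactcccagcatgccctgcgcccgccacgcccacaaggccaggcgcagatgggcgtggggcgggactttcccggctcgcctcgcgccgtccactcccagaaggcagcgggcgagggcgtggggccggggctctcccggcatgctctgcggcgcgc
Ncapg2: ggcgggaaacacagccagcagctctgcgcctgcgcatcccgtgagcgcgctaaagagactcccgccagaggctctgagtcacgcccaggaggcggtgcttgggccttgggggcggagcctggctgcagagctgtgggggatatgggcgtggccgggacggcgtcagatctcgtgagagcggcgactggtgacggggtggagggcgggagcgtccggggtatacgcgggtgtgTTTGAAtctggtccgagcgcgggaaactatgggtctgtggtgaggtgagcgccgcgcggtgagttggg
Kif4: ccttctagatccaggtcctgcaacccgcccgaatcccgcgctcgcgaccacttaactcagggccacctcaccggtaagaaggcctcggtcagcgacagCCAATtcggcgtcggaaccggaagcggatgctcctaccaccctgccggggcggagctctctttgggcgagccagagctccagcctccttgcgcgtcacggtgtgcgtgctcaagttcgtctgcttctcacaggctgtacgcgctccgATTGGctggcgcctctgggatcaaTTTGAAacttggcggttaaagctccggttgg

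Of the windows of mitosis members, 74 for 67 genes, 70.3% hold the CHR letters and 70.3% CCAAT. Among the 12320 windows of genes above the floor the shares are 19.9% and 37.4%, and over all 32851 windows 27.6% and 37.4%. TTTGAA or TTTAAA begins 220 bases before the start in Birc5, 18 bases before it in Ncapg2 and 20 bases into the transcript in Kif4. The histone windows, 22 for 22 genes, hold CCAAT in 86.4% and the CHR letters in 59.1%. Letters of the E2F element, TTTNGCGC on either strand, are in 20.3% of the 69 windows of S-phase members and in 2.38% of those of genes above the floor. A match is a description of the letters and shows no binding.

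Most replication genes were lower with citalopram, and part of the list was higher. Of 68 genes that act in S phase, 49 were lower and 19 higher (median -0.13). Genes that license and fire origins, or control this, were lower in 15 of 18. Among them were Dbf4, the activator of the CDC7 kinase (11.48 untreated, 11.17 with citalopram), and Gmnn, geminin, an inhibitor of licensing (7.12 and 6.81). The helicase subunit genes Mcm2 and Mcm7 were level, at 0.04 and 0.01. Genes of the fork and polymerases were lower in 19 of 25. Pola1, the polymerase that starts each strand, was at 10.15 and 9.54, and Rfc3, of the clamp loader, at 10.57 and 10.11. Pcna, the sliding clamp, was at 13.37 and 13.38, a difference of 0.01. Of 8 nucleotide supply genes 6 were lower, led by Tyms, thymidylate synthase (-0.33), and Tk1, thymidine kinase (-0.29).

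The control genes of entry into S phase were divided, with 8 of 17 higher and a median of -0.05. The cyclin D partners were on the higher side: Cdk6 at 11.03 untreated and 11.42 with citalopram, Ccnd2 at 12.76 and 12.98, Ccnd1 at 12.79 and 12.93, and Cdk4 at 13.52 and 13.62. At levels of 12 and above, as for Ccnd2, Ccnd1 and Cdk4, 72.7% of genes were higher (median 0.07, 75th percentile 0.14). Ccne2, cyclin E2, which acts later, was lower (10.67 and 10.39), as were Cdk2 (-0.18) and the repressor gene E2f8 (-0.20). Cdk6, Ccnd2 and Ccnd1 were higher at day 7 too, by 0.26, 0.13 and 0.13.

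Genes of homologous recombination and Fanconi repair were lower in 21 of 23 (median -0.21). Besides Slf1 these were led by Fancm, a DNA translocase (7.79 untreated, 7.35 with citalopram), Rad54l, a recombination motor (8.34 and 7.90), and Fancd2, the ubiquitin-marked hub of the pathway (9.03 and 8.60). Brca2 and Smc6 were the 2 higher members, each at 0.02. At day 7 18 of 23 were lower.

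Replication-dependent histone genes had the lowest median of the 32 lists described, -0.32, with 25 of 26 measured members lower and 6 at least 1.5-fold lower, where 0.303% of genes above the floor were. Of the 64 histone genes listed, 38 were not analysed, so most of the class is not covered. The H2A genes had a median of -0.52 over 4 of 18 listed, and the H2B genes -0.25 over 9 of 16. H2bc8 was at 10.21 untreated and 9.60 with citalopram, and H2ac8 at 7.77 and 7.18. H4c4 was the 1 higher member, by 0.10 from 12.89 untreated. At day 7 the median of the list was -0.27, with 25 of 26 lower.

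**Figure D3:**
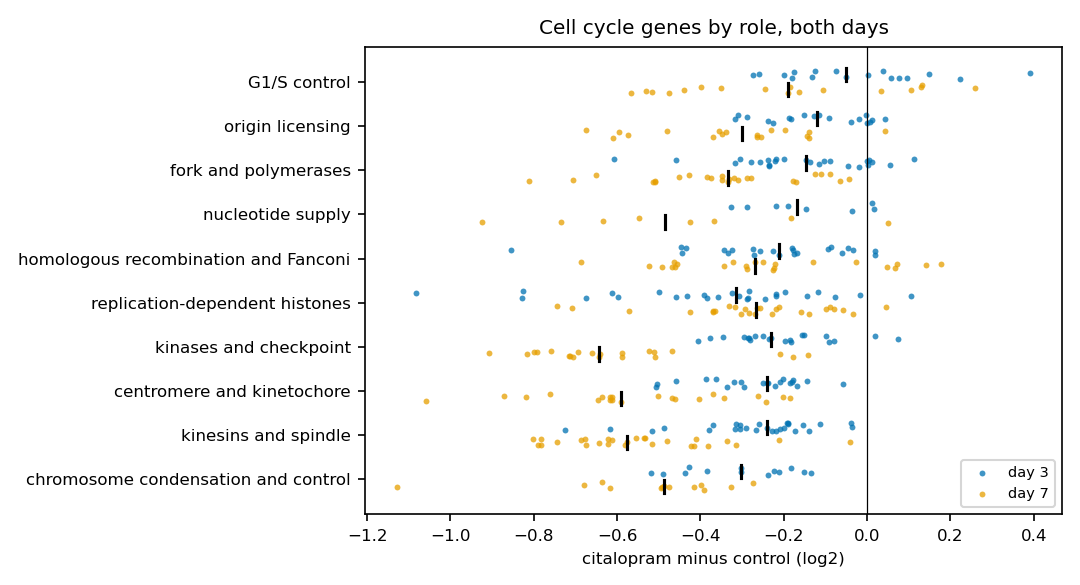
Each point is a gene of the named role, with its citalopram minus control difference (log2) at day 3 in blue and at day 7 in yellow, and black bars are medians. The day 3 medians of the 4 mitosis roles lie between -0.23 and -0.30, and those of the same roles at day 7 between -0.49 and -0.64, while G1/S control genes lie on both sides of 0.

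Genes of the NRF2 antioxidant list leaned higher, and Hmox1 led them. The list holds known targets of NRF2, its regulators, and other genes of haem, iron and glutathione. Of 55 measured, 52 of them above the floor, 39 (70.9%) were higher and 16 lower (median 0.14). Among genes above the floor 57.7% were higher, and among all named genes 59.4%. The list's median untreated level was 10.31, and at levels of 10 to 11 62.8% of genes were higher (median 0.04). In the list 3 members were past 1.5-fold, where 0.500% of genes above the floor were. The 6 regulators, 5 of them higher and all counted in the list, differed little (median 0.10). Nfe2l2, which encodes NRF2, was at 12.61 and 12.76, and Keap1, its inhibitor, at 8.15 and 8.13, while Mafg, a partner of NRF2 on DNA, was at 8.64 and 8.98. At day 7 41 of 55 were higher, where 51.3% of genes above the day 7 floor and 45.0% of all 19938 genes were, with a median of 0.12. The list was also higher by a median of 0.08 on the untreated array of day 7 than on that of day 3.

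The best-known NRF2 targets were among the higher. Gstm1, a glutathione transferase, was at 10.20 untreated and 10.87 with citalopram, then at 10.41 and 11.17 at day 7. Gclc and Gclm, the subunits of the enzyme that limits glutathione synthesis, were at 11.11 and 11.57, and at 11.28 and 11.66. Nqo1, a quinone reductase, was at 11.75 and 12.19, Cbr3, a carbonyl reductase, at 7.43 and 7.90, and Gsr, glutathione reductase, at 10.52 and 10.83. All of these were higher with citalopram at day 7 too, by 0.07 (Gclm) to 0.82 (Cbr3). Fth1, the ferritin heavy chain that stores iron freed from haem, differed by 0.20. Of the haem and iron genes 4 of 7 were higher, and Slc40a1, Blvra and Fech were slightly lower (-0.04, -0.03 and -0.05). Glutathione genes were higher in 6 of 10 and conjugation and reduction genes in 10 of 16, where 57.7% of genes above the floor were. Genes of NADPH supply were higher in 4 of 5 and other targets in 5 of 6. All 5 thioredoxin genes were higher, from Prdx1, a peroxiredoxin (0.07), to Srxn1, sulfiredoxin, which repairs it (0.20).

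Idh1, which makes NADPH in the cytosol, came next to Hmox1 in the list at day 3 and had the opposite sign at day 7. The untreated and citalopram arrays read 10.97 and 11.71 at day 3, then 11.03 and 10.54 at day 7. Pgd, of the pentose phosphate pathway, differed by 0.30 and 0.18. The glutathione peroxidase genes Gpx1 and Gpx4 were on the lower side (-0.14 and -0.03), and so were Chac1, which degrades glutathione (-0.15), and Trib3, a stress-induced pseudokinase (-0.26 at day 3 and 0.60 at day 7). The core letters of the antioxidant response element, TGACNNNGC on either strand, are in 27.4% of 62 promoter windows of the list and 13.8% of those of genes above the floor. The windows of Idh1, Gstm1 and Cbr3 hold none.

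The cholesterol list, of control, synthesis, uptake and efflux genes, had 31 of 35 members higher at day 3 and a median of 0.21. Srebf2, which encodes SREBP2, the factor that drives the synthesis genes, was at 9.85 untreated and 10.32 with citalopram. Insig1, which holds SREBP2 back and is itself a target, was at 10.74 and 10.96. All 7 measured genes from acetyl-CoA to farnesyl and geranylgeranyl diphosphate were higher (median 0.21), such as Fdps, farnesyl diphosphate synthase (10.04 and 10.34), and Hmgcs1, HMG-CoA synthase (10.08 and 10.35). Of the 11 genes from squalene on, 10 were higher (median 0.27). Hsd17b7, a sterol reductase, was highest, at 10.02 and 10.67, then Cyp51, which removes a methyl group from lanosterol (10.11 and 10.44). Sqle, squalene epoxidase, was at 10.42 and 10.69, and Ebp, a sterol isomerase, was the 1 lower gene (9.96 and 9.79). All 7 uptake and trafficking genes were higher, with the lysosomal cholesterol carriers Npc1 and Npc2 at 0.25 and 0.26. Of 3 efflux genes, 2 of them above the floor, 2 were higher (median 0.06).

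The list had the opposite sign at day 7, where 32 of 35 were lower (median -0.22), and the turn was largest in the mevalonate segment (0.21 at day 3, -0.44 at day 7). Hsd17b7 was at 10.08 untreated and 9.82 with citalopram at day 7, and Fdft1, squalene synthase, at 10.90 and 11.19 at day 3 and 11.16 and 10.62 at day 7. With 1 array for each value the difference between days was not tested.

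Promoters of this pathway are known for sterol response elements next to NF-Y sites. The windows of the 3 members with the largest difference that have one in the table are shown for the CCAAT letters, again 250 bases before to 50 after the start on the gene's strand (RefSeq, GRCm38.p6). They lie at chr1:169969156-169969455 (minus strand), chr15:82147019-82147318 (plus strand) and chr5:4104648-4104947 (minus strand), and capitals mark CCAAT on either strand.
Hsd17b7: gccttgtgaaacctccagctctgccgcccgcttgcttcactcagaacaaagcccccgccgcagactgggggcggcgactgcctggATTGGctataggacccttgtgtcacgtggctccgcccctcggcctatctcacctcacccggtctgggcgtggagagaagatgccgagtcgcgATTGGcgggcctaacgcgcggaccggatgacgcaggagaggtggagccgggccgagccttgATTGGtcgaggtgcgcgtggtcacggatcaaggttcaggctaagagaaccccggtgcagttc
Srebf2: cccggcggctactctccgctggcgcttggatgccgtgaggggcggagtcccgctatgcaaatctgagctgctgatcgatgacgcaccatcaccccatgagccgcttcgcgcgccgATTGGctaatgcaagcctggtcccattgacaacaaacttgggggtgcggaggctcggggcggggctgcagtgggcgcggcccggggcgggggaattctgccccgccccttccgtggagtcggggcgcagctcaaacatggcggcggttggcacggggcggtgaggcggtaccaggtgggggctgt
Cyp51: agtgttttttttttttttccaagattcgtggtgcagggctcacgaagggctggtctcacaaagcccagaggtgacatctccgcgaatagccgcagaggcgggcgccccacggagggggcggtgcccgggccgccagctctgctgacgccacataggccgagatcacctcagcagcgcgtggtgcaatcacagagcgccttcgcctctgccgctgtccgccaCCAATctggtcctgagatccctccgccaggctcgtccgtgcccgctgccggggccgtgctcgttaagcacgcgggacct

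CCAAT is in 59.5% of 37 windows of the list, against the 37.4% given above for genes above the floor. Hsd17b7, the member furthest higher, has it 3 times, at 165, 73 and 12 bases before the start, all as ATTGG. The letters of the classic sterol response element, TCACNCCAC on either strand, are in 2 of the 37 windows (5.41%) and in 1.10% of those of genes above the floor, and in none of these 3 windows.

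**Figure D4:**
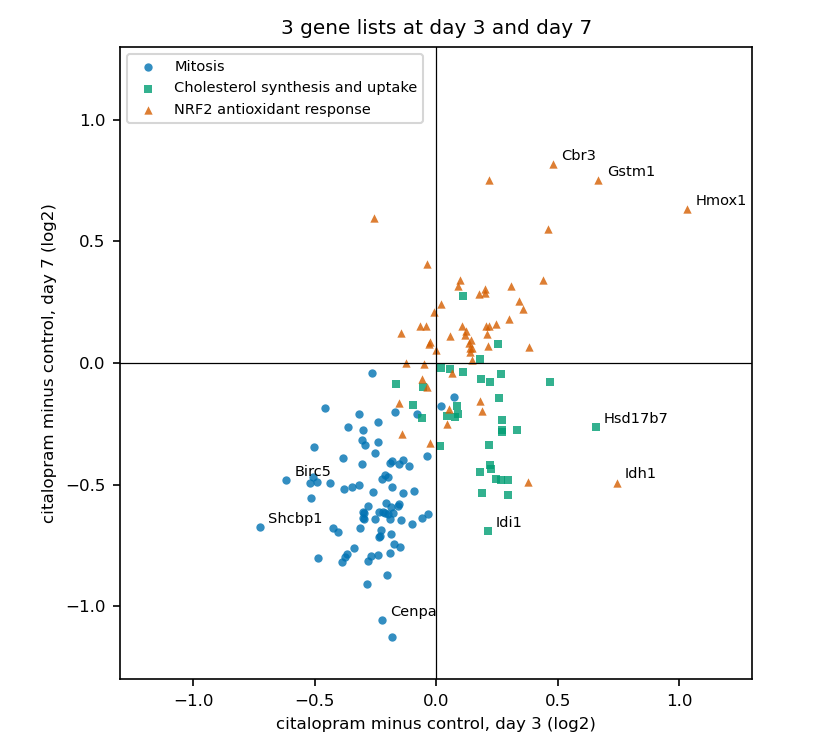
Each point is a gene of the mitosis, cholesterol or NRF2 list, with its citalopram minus control difference (log2) at day 3 across and at day 7 up; the 2 differences share no array. Mitosis genes lie at the lower left, NRF2 genes mostly at the upper right with Idh1 below 0 at day 7, and cholesterol genes to the right of 0 at day 3 and under 0 at day 7.

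Genes of fatty acid synthesis and desaturation were also on opposite sides in the 2 pairs, with 16 of 21 higher at day 3 (median 0.09) and 17 lower at day 7. Elovl6, which lengthens saturated fatty acids, was at 9.85 untreated and 10.34 with citalopram. Lpin1, a phosphatidate phosphatase, was at 8.67 and 9.15, Scd1, which makes oleate, at 11.38 and 11.71, and the desaturase genes Fads1 and Fads2 differed by 0.27 and 0.28. Srebf1, the factor of this branch, differed by 0.04. Of 21 genes of lipid droplets, fatty acid binding and adipogenic control, 12 were higher (median 0.04), Fabp7 first, then the droplet coats Plin2 (11.17 and 11.52) and Plin3 (9.79 and 10.10). Pparg, the main adipogenic factor, was dim on both arrays (6.10 and 6.18).

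Of 54 lysosomal genes 45 (83.3%) were higher at day 3 (median 0.10), against 57.7% of genes above the floor and 59.4% of all. The list's median untreated level was 10.80. At levels of 10 to 11 62.8% of genes were higher (median 0.04), and at levels of 11 to 12 68.3% (median 0.07). Of 16 genes of the vacuolar proton pump, which acidifies the lysosome, 14 were higher (median 0.15). Next to Atp6v0d2 these were Atp6v0a1, of the membrane sector (10.81 untreated, 11.25 with citalopram), and Atp6v1b2 and Atp6v1a, of the ATP-splitting sector (0.27 and 0.21). Of the hydrolases 20 of 25 were higher, with Gla, alpha-galactosidase, at 10.03 and 10.47, Tpp1, a peptidase, at 11.37 and 11.80, and Ctsd, cathepsin D, at 12.52 and 12.74. Pla2g15, a lysosomal phospholipase, was the hydrolase furthest lower (9.30 and 9.07).

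Among lysosomal membrane and control genes 11 of 13 were higher, among them Mcoln1, the lysosomal calcium channel (10.80 and 11.15), and Mitf and Tfe3, factors of the family that drives lysosomal genes (0.32 and 0.21). Tfeb, of that same family, was lower (7.94 and 7.73). At day 7 membrane and control genes were again higher in 11 of 13 (median 0.09), and the pump and hydrolase genes were mostly lower, with medians of -0.07 and -0.15. All genes at day 3 levels of 10 to 11 had a day 7 median of -0.002, and those at 11 to 12 one of -0.03. Autophagy genes were evenly divided at day 3, 14 of 26 higher (median 0.01, turning negative under each rescaling of the arrays), with Wipi1, of the forming autophagosome, at 0.27 and Atg12, of its conjugation system, at -0.26.

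Osteoblast genes leaned slightly higher, with 21 of 29 (median 0.09) and none past 1.5-fold. Sp7 was at 7.79 untreated and 8.24 with citalopram, and Dlx5, a homeobox factor upstream of it, at 10.18 and 10.59. Col1a1 was at 11.92 and 12.17 and Col1a2 at 11.90 and 12.10. On the untreated array of day 7 both were higher still, at 12.59 and 12.47. Pdpn, podoplanin, which marks early osteocytes, was at 11.82 and 12.26, Dmp1, an osteocyte matrix protein, at 8.50 and 8.71, and Alpl at 6.07 and 6.01. At day 7 15 of 29 were higher.

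Genes that handle phosphate and mineral were higher in 10 of 13 (median 0.14). Slc20a1 and Slc20a2, the sodium-dependent phosphate importers, were at 10.77 and 11.34, and at 9.98 and 10.31. Vdr, the vitamin D receptor, was at 10.58 and 11.01, and Ank, which exports pyrophosphate, an inhibitor of mineral, at 10.97 and 11.23. Nt5e, which makes adenosine from AMP, was lower (8.14 and 7.93). At day 7 Slc20a1, Vdr, Slc20a2 and Ank were each lower with citalopram, with differences of -0.10, -0.29, -0.18 and -0.29.

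Collagens and their enzymes were near the background, 23 of 34 higher (median 0.05). P3h2, a prolyl 3-hydroxylase, was highest (0.43) and the cross-linking oxidase gene Loxl4 lowest (-0.23). Matrix proteases and inhibitors were higher in 24 of 33 (median 0.13), and after Serpinb9b came Serpinb8 (8.77 and 9.34) and the aggrecan-cutting Adamts5 (9.38 and 9.91) and Adamts1 (8.54 and 9.02). The cartilage markers differed beside these: Sox9, the chondrocyte factor, was at 10.60 and 11.01 and Col2a1, cartilage collagen, at 9.37 and 9.89, while Col9a1 and Col10a1 were lower (-0.15 and -0.28) and Acan, Matn1, Matn3, Comp, Cnmd and Hapln1 were below the floor. Over the 10 chondrocyte markers 7 were higher, and their part in the matrix genes was not tested.

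**Figure D5:**
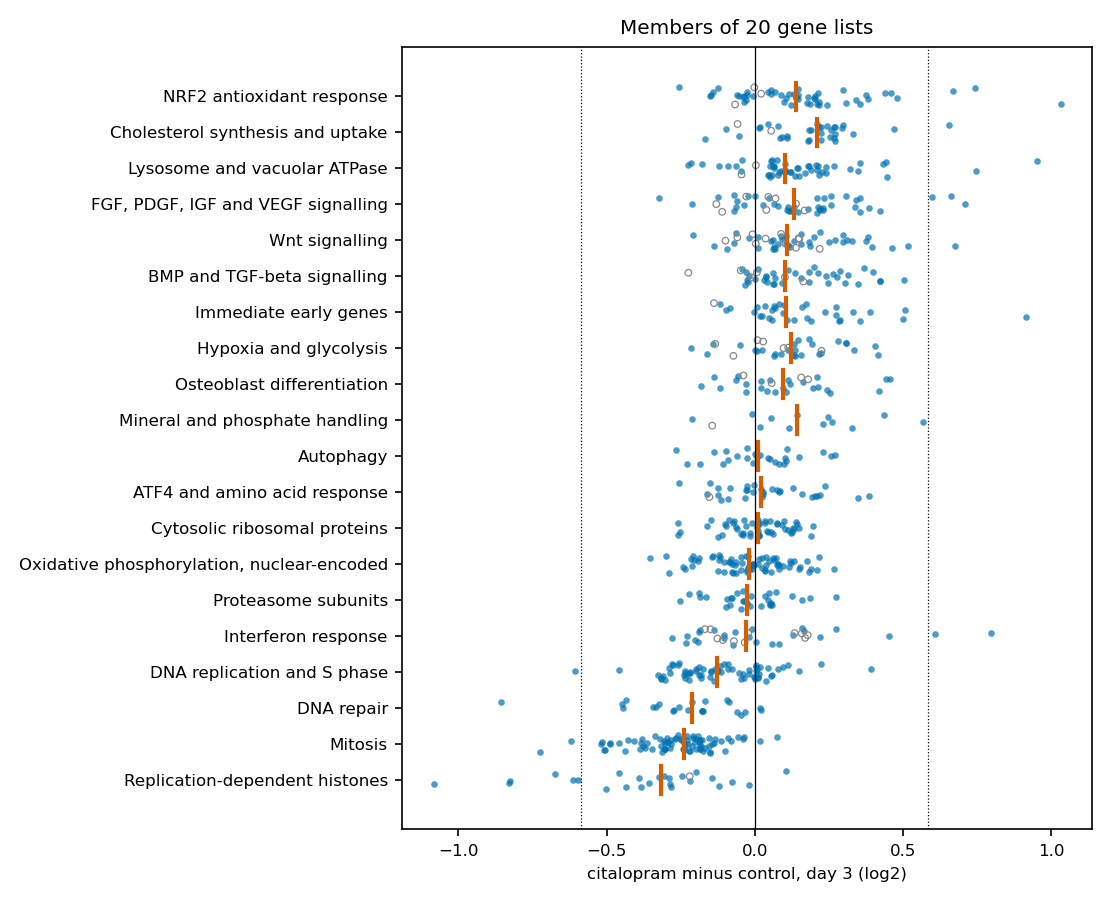
Citalopram minus control at day 3 (log2) for every measured member of 20 lists, filled where the gene reached the floor and open where it did not, with orange bars for list medians and dotted lines at 1.5-fold. Medians run from 0.21 for cholesterol genes to -0.32 for histones, and the 4 lists of replication, repair, mitosis and histones lie lowest.

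Wnt receptor genes were higher with citalopram at day 3, and most growth factor receptor genes with them. All 14 measured Wnt receptor genes were higher (median 0.12), led by Lrp4, a co-receptor that binds the Wnt inhibitor sclerostin (8.52 untreated, 9.19 with citalopram), and Fzd7, a frizzled receptor (9.87 and 10.33). Lrp4 was at 9.51 on the untreated array of day 7, so the untreated day 3 array is the lowest of the 4. Of the 50 Wnt genes in all, 41 were higher (median 0.11), including 9 of 14 ligands and agonists, with Rspo2, which keeps Wnt receptors at the surface, at 7.79 and 8.31 at day 3 and 8.29 and 8.95 at day 7. Of 13 inhibitors, 8 of them above the floor, 11 were higher, Sfrp2 first (0.31). Axin2, a standard read-out of Wnt signalling, was at 6.66 and 6.73. At day 7 the 50 Wnt genes split into 25 higher and 25 lower. There 11 of 14 receptors were higher (median 0.15) and 12 of 13 inhibitors lower (median -0.16).

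BMP and TGF-beta genes were higher in 34 of 43 (median 0.10). Among ligands Tgfb2 was at 9.99 and 10.41 and Bmp4, which promotes bone formation, at 11.10 and 11.41. Among receptors and SMADs 14 of 17 were higher, with the inhibitory Smad6 at 8.51 and 8.93 and the receptor Tgfbr2 at 10.19 and 10.59. Grem1, gremlin, a secreted BMP antagonist, was highest in the list (11.44 and 11.94), and the BMP target genes Id2 and Id3 differed by 0.20 and 0.18.

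Genes of FGF, PDGF, IGF and VEGF signalling were higher in 37 of 49 (median 0.13), and their receptors in 13 of 15 (median 0.21). Pdgfra, the alpha receptor of PDGF, was at 8.73 and 9.43 at day 3 and 8.73 and 9.17 at day 7. Egfr was at 9.19 and 9.54 and Fgfr2 at 10.96 and 11.30, whereas Fgfr3 was lower (7.07 and 6.85). Irs1, the adaptor of the insulin and IGF receptors, was at 10.84 and 11.50 on its brighter feature, with 0.24 on the other, and Igfbp5, which binds IGFs, at 8.34 and 8.93. Fgf18, an FGF of skeletal growth, was the ligand furthest lower (8.56 and 8.23).

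Immediate early genes, which answer within minutes to growth signals, were higher in 29 of 34 (median 0.10). All AP-1 genes above the floor were higher: after Fosb came Atf3 (7.60 and 7.89), Fosl2 (0.27), Fos (6.49 and 6.72) and Jun (10.84 and 11.02), each higher at day 7 as well, by 0.11 (Jun) to 0.71 (Atf3). Junb and Jund, at 0.06 and 0.02 at day 3, were at -0.01 and -0.02 at day 7. Over the whole list 20 of 34 were higher at day 7, and 12 of the 29 higher at day 3 were lower there. Ptgs2, the inducible cyclooxygenase, was at 11.91 and 12.42, and the orphan receptor gene Nr4a1 at 8.19 and 8.69. Klf2 and Ier5 were slightly lower (-0.12 and -0.10).

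Inflammatory genes leaned higher with citalopram at day 3 and lower at day 7. Of 38 cytokine, chemokine and inflammation genes, 27 were higher at day 3 (median 0.07), where 59.4% of all 19938 genes were. Of the 22 that reached the floor 19 were higher (median 0.15). In the day 7 pair 28 of the 38 were lower (median -0.10), 20 of them higher at day 3. Of all 19938 genes 10957 were lower at day 7. So were 4955 of the 7742 genes below the day 3 floor (median -0.04), where 16 of the 38 lie. The monocyte attractants Ccl2 and Ccl7 were at 8.53 and 9.04, and at 7.59 and 8.13, at day 3. At day 7 they were at 9.47 and 8.09, and at 8.21 and 7.37, lower with citalopram. Vcam1, a leukocyte adhesion molecule, was at 10.85 and 11.50 at day 3, and Tnfrsf11b, osteoprotegerin, the decoy that restrains osteoclasts, at 11.49 and 11.81. Il6 was dim, at 5.73 and 6.29, and Ccl5 was lower (7.88 and 7.61). Among macrophage markers Lyz2, lysozyme, was higher (8.93 and 9.50) and Cd14 and Cd68 were level (-0.04 and -0.01), while Ptprc, Adgre1, Csf1r, Itgam, Acp5, Calcr, Ocstamp and Dcstamp were below the floor.

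Interferon response genes split, with 15 of 36 higher and a median of -0.03. Usp18, Ifit1 (6.82 and 7.43) and Ifit3 (8.09 and 8.54), the latter pair antiviral proteins, were the highest. Gbp7, a guanylate-binding protein, was at 7.14 and 6.86, and the factors Irf3 and Irf9 were lower (-0.20 and -0.19) while Stat2 was higher (0.22).

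Stress and metabolic lists had small medians, from -0.01 for heat shock chaperones to 0.12 for glycolysis and hypoxia. Targets of p53 were higher in 17 of 29 (median 0.07), with the kinase gene Plk2 and the growth arrest gene Gas1 at 0.46 and 0.45. ATF4 and amino acid response genes were higher in 17 of 32 (median 0.02, negative under each rescaling), with the arginine carrier Slc7a1 at 0.38; Atf4 differed by 0.02 and Ddit3, the CHOP factor, by 0.08. Chaperones of the endoplasmic reticulum were higher in 21 of 27 (median 0.07), with Hspa5, BiP, at 12.62 and 12.88 and the stress sensor Eif2ak3 (PERK) at 9.45 and 9.77. Heat shock chaperones were higher in 9 of 20 (median -0.01), with Hspb8, a small chaperone, at 0.49 and Chordc1, a partner of HSP90, at -0.32. Glycolysis and hypoxia genes were higher in 28 of 34 (median 0.12). Hk2, hexokinase 2, was at 8.83 and 9.24 and Pfkp, phosphofructokinase, at 9.42 and 9.83.

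Nuclear-encoded genes of oxidative phosphorylation were higher in 30 of 72 (median -0.02), with complex I at 12 of 34 and its subunit gene Ndufa1 furthest lower (-0.35). Cytosolic ribosomal protein genes were higher in 30 of 52 (median 0.01, negative under each rescaling) and proteasome subunit genes in 13 of 31 (median -0.03), none of them past 1.5-fold. Actin and YAP target genes were higher in 18 of 25 (median 0.07). That was near the background for bright genes, as the list's median untreated level was 12.39. At levels of 12 and above 72.7% of genes were higher (median 0.07, 95th percentile 0.26). Actb, often taken as a constant reference, was at 13.93 and 14.19, a difference of 0.26. Acta1, skeletal muscle actin, was the lowest of the list (-0.43).

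Genes of the pathway that citalopram is made to block were mostly below the floor. Of 24 genes of serotonin and monoamine handling 7 reached the floor, and 18 were higher (median 0.05). Slc6a4, the serotonin transporter that citalopram blocks, was below the floor, at 5.51 untreated and 5.48 with citalopram. Maoa, which breaks serotonin down, was at 9.17 and 9.24, and Htr2a, a serotonin receptor, was at the floor (6.08 and 6.02). Of 17 xenobiotic genes 9 were higher (median 0.06). Cyp1b1, a cytochrome of oestrogen and retinoid metabolism, was at 11.89 and 12.42, and Tiparp, like Cyp1b1 a target of the aryl hydrocarbon receptor, at 11.15 and 11.69, while Cyp1a1, the best-known such target, was near the floor and level (6.18 and 6.17).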

How the data were processed

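RNA from 4 cultures was hybridised to Affymetrix whole-transcript arrays, 1 array per group. The authors deposited log2 values per feature, with Partek named per the submitters' processing notes and no version. The base of the logarithm was inferred from the range (3.90 to 15.5), since no source used here gives it, nor the background correction, normalization or probe summarization. The values were used unaltered. Of 35556 features, 21789 carry 1 gene symbol, and each of 19938 genes is read by its brightest feature on average over the 4 arrays. Differences are citalopram minus control at 1 day, counted at 2-fold and 1.5-fold among genes whose brighter array reaches the 40th percentile. With 1 array a group there is no replicate error and no p-value.

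Members of 32 gene lists and 9 marker lists (1335 symbols, 1204 measured, 131 not analysed here) are described by counts and medians. The members and lists were chosen with earlier results of these data known. Named are the 15 furthest genes at each end (without symbols of predicted genes, small RNAs and smell receptors), the furthest members of each list by role, and a fixed set of defining genes. Promoter windows of 3 members of the mitosis, cholesterol and NRF2 lists were chosen by size of difference; the NRF2 windows hold no match and are not printed. Alternatives were 2 quantile normalizations and cyclic loess (limma 3.58.1, R 4.3.3), centring, other floors and the mean of features. Counting was tested on simulated data. Python 3.11.15, pandas 2.3.3 and numpy 2.4.6 did the rest.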

Additional observations from a re-analysis of the deposited data

Results flagged for a closer look

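Some results had opposite signs in the day 3 and day 7 pairs, and with 1 array per group none of these differences between days was tested. Adgrg1, the adhesion receptor gene, was higher with citalopram by 1.03 at day 3 and differed by -0.18 at day 7, a change of -1.22 from day 3 to day 7. Fabp7, the fatty acid-binding protein gene, differed by 0.94 and -0.24, a change of -1.18. Usp18, the interferon-induced gene, differed by 0.80 and -0.25, a change of -1.04.

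In 4 lists at least 75% of the members were higher at day 3 and at least 75% lower at day 7. The cholesterol list had a median of 0.21 at day 3 and -0.22 at day 7, fatty acid synthesis and desaturation 0.09 and -0.13, and chaperones of the endoplasmic reticulum 0.07 and -0.17. Serotonin and monoamine handling had 0.05 and -0.078, with 7 of 24 members above the floor. Among the 7742 genes below the day 3 floor the median was 0.04 at day 3 and -0.04 at day 7, where 4955 were lower, so the serotonin list had the same signs as dim genes as a whole. The median over all genes above the floor was 0.03 at day 3 and 0.00 at day 7. The median untreated levels at day 3 were 9.96 for the cholesterol list, 10.37 for fatty acid synthesis and 10.71 for the chaperones. Genes at day 3 levels of 9 to 10 had medians of 0.03 and 0.03 on the 2 days. Those at 10 to 11 had 0.04 and -0.002, and those at 11 to 12 had 0.07 and -0.03, so brighter genes as a whole also turned in sign, by less.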

How the results depend on the processing

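No paired analysis was possible because the day 3 comparison has 1 array a side; a fit over both days would average day 3 with day 7 and was not run. Genes at least 2-fold higher numbered 3 with arrays centred and 3 with a floor at the 60th percentile, and those at least 2-fold lower 1 with that floor and 1 with the mean of a gene's features. With the 60th percentile floor, 34 higher and 20 lower genes reached 1.5-fold. The share of genes higher by any size, 57.7% as deposited, was 54.5% under quantile normalization, 52.4% under cyclic loess, 48.3% after centring and 60.9% with the higher floor. Mitosis members higher numbered 1 under cyclic loess and 1 after centring, S-phase members 12 under both quantile normalizations, 10 under cyclic loess and 10 after centring, and DNA repair members 1 under cyclic loess and 0 after centring. The other list counts (152 of 160) stayed within 1.5 times, and list medians moved by -0.05 to 0.01 under the rescalings. That changed 21 of 32 by over 1.5 times or in sign, for example osteoblast differentiation from 0.09 to as low as 0.05, p53 targets from 0.07 to 0.03 and collagens from 0.05 to 0.01. The other 11 lists, among them mitosis, histones, cholesterol and NRF2, did not change so far. The medians of autophagy, ATF4 and cytosolic ribosomal genes, all near 0, turned negative under each rescaling. Cep192 and Slf1 moved by at least 0.1 under the mean of features, to -0.47 and -0.61. The other named genes have 1 feature each, so that setting could not change them. Centring shifts every gene by the same amount, under 0.1, and so could move none. The other 148 of 150 recomputed named values did not move, but for those 2 settings that was fixed in advance. Precision is limited by the number of arrays, and no alternative stands in for a replicate.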

Other observations

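Several genes past 1.5-fold at day 3 fall in no list described above. Cemip, which breaks down hyaluronan, was at 10.60 untreated and 11.34 with citalopram, then at 11.86 and 11.71 at day 7, so the untreated day 3 array is the lowest of the 4. Peg10, an imprinted gene, was at 9.76 and 10.47 and the netrin receptor gene Unc5c at 7.25 and 7.97. Ccn3, a matricellular protein, was at 10.68 and 11.32, and S1pr1, a sphingosine 1-phosphate receptor, at 8.98 and 9.56. Xdh, xanthine dehydrogenase, was at 10.08 and 10.67. On the lower side were Hmgb2, a chromatin protein of dividing cells (10.12 and 9.53), Rdm1, a RAD52-related protein (7.99 and 7.39), and Mrps36 (9.57 and 8.97). These were picked after their values were seen.

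Gene families that share a symbol, also looked at after the values were seen, leaned either way. Of 37 centrosomal genes named Cep, 31 were lower with citalopram at day 3 (median -0.09) and 13 at day 7. Of 77 mitochondrial ribosomal protein genes, 49 (63.6%) were lower (median -0.08), and of 364 solute carrier genes 255 (70.1%) were higher (median 0.06). Over all named genes 59.4% were higher and 40.6% lower at day 3 (median 0.03). Of 15 adhesion G protein-coupled receptor genes, 10 of them above the floor, 12 were higher (median 0.15). After Adgrg1 came Adgrg6, at 10.43 and 10.72 at day 3 and 10.54 and 11.10 at day 7, and Adgrl2, at 12.28 and 12.53.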
